A study of Mus musculus with 18 samples.

Results

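The 6 week 4 libraries of cultured mouse bone marrow mesenchymal stem/progenitor cells (MSPCs), 3 from Pot1a wt/wt cultures and 3 from Pot1a Δ/Δ cultures, were compared across all measured genes, outside the lists of bone formation, PPAR signalling and fatty acid β-oxidation. They were chosen by their labels, and are 6 of the 18 libraries of the series, which also holds 6 week 1 libraries of the same design and 6 libraries of freshly sorted cells. The donor mice were labelled C57BL/6, aged 4-6 months, and carried either wild-type Pot1a alleles or 2 floxed ones, together with a flox-stop-flox tdTomato reporter. Marrow from femurs and tibiae was grown for 1 week, CD51+/PDGFRα+ cells were sorted on day 7 and grown for 3 days, and Cre recombinase gesicles (vesicles that carry the enzyme into cells) were added at 10 µL per well for 12 hours. After 48 hours tdTomato+ cells were sorted again, and the week 4 cells were then kept for about 4 weeks. Both groups therefore received Cre, carried the reporter and were sorted on it, and differ in whether the enzyme had a Pot1a allele to cut. The methods describe the floxed line as of mixed B6 and 129 origin, so that its genetic background and the deletion cannot be told apart in these groups. The study describes the cultures as coming from 3 animals in each group, but the labels tie no library to an animal. The p-values below therefore measure the spread between libraries, pooled over the 12 cultured libraries of both weeks, which may be technical in part.

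POT1 is the shelterin subunit that binds the single-stranded end of the telomere, and mice have a pair of such genes, Pot1a and Pot1b. MSPCs of the marrow make bone, cartilage and fat cells and also secrete the factors, such as CXCL12 and stem cell factor, that hold blood stem cells and B cell precursors in the marrow. Loss of telomere protection is best known for calling a DNA damage response, p53 signalling and, in some cells, an interferon response.

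The week 4 libraries held between 12807832 and 90717232 counts over genes, with the lowest total in wt/wt replicate 1 and the highest in Δ/Δ replicate 3. Levels are given as CPM (a gene's count relative to its library's total count) after trimmed-mean scaling, and were not divided by gene length, so that they are compared between libraries and not between genes. Of 24421 genes in the table, 13169 had enough counts to be tested. The first principal component of the 500 most variable genes carried 79.4% of the variance and parted the genotypes (-32.6 to -27.9 in wt/wt, 28.3 to 31.4 in Δ/Δ). The second carried 13.4% and set replicate 1 of both groups (21.4 and 11.3) apart from the other 4 libraries (-12.8 to -2.43). Counts of Pot1a itself did not fall with the Δ/Δ label: it stood at 37.8, 33.7 and 33.1 CPM in wt/wt replicates 1 to 3 and at 47.9, 46.3 and 42.8 CPM in Δ/Δ. The fitted difference was 0.39 ± 0.11 (log2, ± SE; adjusted p = 0.0298 by the edgeR quasi-likelihood test), a call that was lost without wt/wt replicate 2 or 3 or Δ/Δ replicate 1 or 2. An exact two-sided permutation test gave p = 0.1, the smallest that 3 against 3 allows. The exons between the loxP sites were not named in the sources used here, so whole-gene counts do not check the deletion. The study itself reports a strong, significant fall of Pot1a mRNA by qPCR in cultured cells given Cre. It also reports a deletion band by electrophoresis.

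At week 4, 1211 genes were higher (9.2% of those tested) and 851 lower (6.46%) in the libraries labelled Δ/Δ, at an adjusted p below 0.05, which together is 15.7% of all genes tested. At least a 2-fold change was called for 637 higher genes (4.84%) and 386 lower genes (2.93%), and 8-fold for 74 and 80. The median log2 fold change over all tested genes was 0.00242, so that the 2 groups were centred alike. The 3 values of one genotype lay wholly above or below those of the other in 3603 genes (27.4%), among them 2020 of the 2062 called. At week 1 the same contrast called 134 genes (1.02%), and the genotype effect differed between the weeks for 942 genes (7.15%). Of the 2062 genes called at week 4, 66 were called in the same direction and 23 in the opposite direction at week 1, and 859 (41.7%) had an effect that differed between the weeks.

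**Figure D1:**
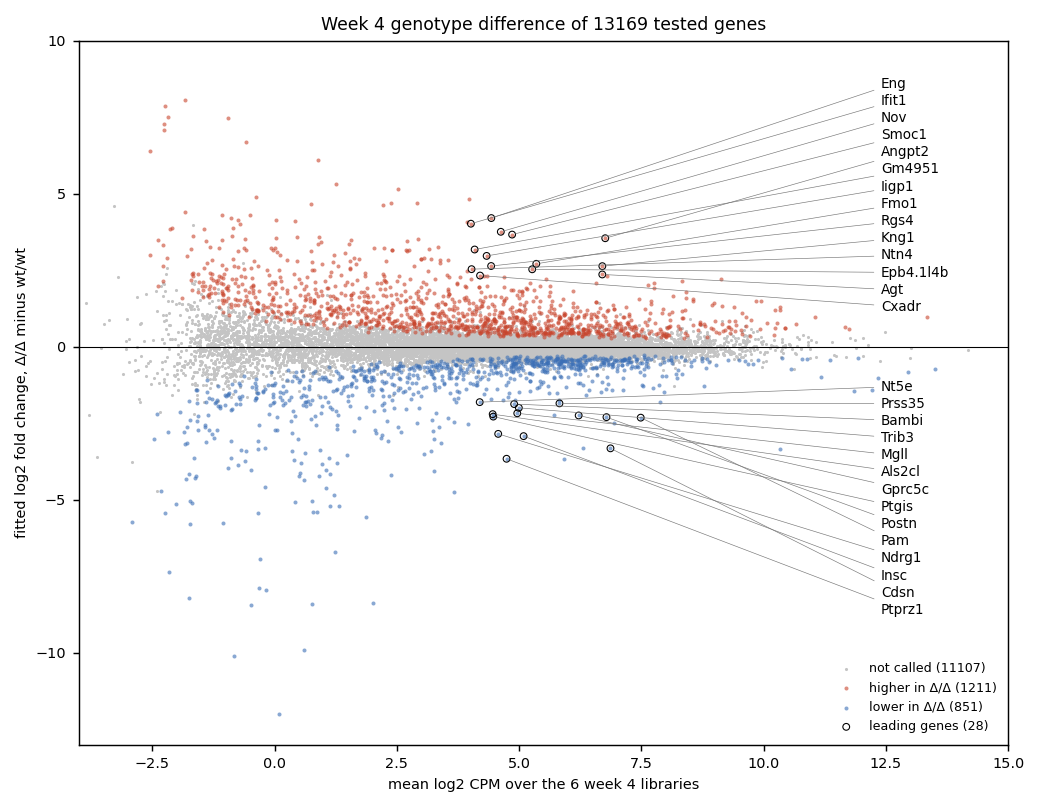
Fitted log2 fold change (Δ/Δ minus wt/wt) against mean log2 CPM at week 4, with 1 point for each of 13169 tested genes, red for the 1211 called higher and blue for the 851 called lower. The 28 circled and named genes are the leading genes, which reach from Eng at 4.21 to Ptprz1 at -3.66.

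The 14 largest rises among well-measured genes took in secreted and cell surface proteins of several kinds. A rise or fall of a gene, here and below, compares Δ/Δ with wt/wt at week 4 unless weeks are named. Nov, a matricellular CCN family protein, was at 6.13, 5.88 and 8.19 CPM in wt/wt and at 104, 100 and 71.5 CPM in Δ/Δ. Its difference was 3.76 ± 0.19 (log2; adjusted p = 2.63e-07). Smoc1, a secreted calcium-binding matrix protein that modulates BMP signalling, was at 3.06, 17.2 and 7.91 CPM in wt/wt and at 58.7, 155 and 150.2 CPM in Δ/Δ, a wide spread within each group without any overlap (3.67 ± 0.51, adjusted p = 0.000317). Agt, which encodes angiotensinogen, and Kng1, which encodes kininogen, are precursors of vasoactive peptides that are best known from the liver. Agt rose from 36.7, 58.4 and 44.4 CPM to 221, 202 and 295 CPM (2.36 ± 0.18, adjusted p = 3.4e-06). Kng1 rose from 50.1, 42.5 and 33.6 CPM to 275, 247 and 258 CPM (2.63 ± 0.15, adjusted p = 4.24e-07). The 14 genes were picked among those without overlap between the groups, so the separation of their libraries follows from that rule. The others of this set were the angiopoietin Angpt2 (3.55), the TGF-β co-receptor Eng (4.21), the netrin Ntn4 (2.54), the flavin monooxygenase Fmo1 (2.71), the G protein regulator Rgs4 (2.64), the band 4.1 family gene Epb4.1l4b (2.53), the adhesion receptor Cxadr (2.33) and 3 interferon-inducible genes, Ifit1 (4.02), Gm4951 (3.18) and Iigp1 (2.97).

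Among the 14 largest falls, Ptprz1, a receptor tyrosine phosphatase that binds pleiotrophin, was at 118, 93.9 and 75.9 CPM in wt/wt and at 7.33, 9.53 and 6.09 CPM in Δ/Δ (-3.66 ± 0.22, adjusted p = 6.18e-07). Postn, which encodes periostin, a matrix protein of periosteum and other collagen-rich tissue, was at 196, 279 and 264 CPM in wt/wt and at 54.0, 48.9 and 47.0 CPM in Δ/Δ (-2.30 ± 0.22). Pam, the enzyme that amidates peptide hormones, was at 388, 427 and 389 CPM in wt/wt and at 69.1, 85.7 and 86.7 CPM in Δ/Δ (-2.32 ± 0.13). The 14 falls were picked by the same rule, so the separation of the groups in these genes follows from it. Nt5e, the ectonucleotidase CD73 used as a marker of cultured MSCs, was at 40.3, 31.5 and 31 CPM in wt/wt and at 9.44, 10.8 and 9.08 CPM in Δ/Δ (-1.81 ± 0.14, adjusted p = 3.45e-06). The remaining falls were those of Cdsn (-3.32), Insc (-2.92), the hypoxia-inducible Ndrg1 (-2.85), the prostacyclin synthase Ptgis (-2.28), Gprc5c (-2.25), Als2cl (-2.20), the monoacylglycerol lipase Mgll (-2.17), the stress pseudokinase Trib3 (-2.0), the TGF-β pseudoreceptor Bambi (-1.87) and Prss35 (-1.85). Ptgs2, which makes the substrate that Ptgis turns into prostacyclin, was also lower (23.2, 29.9 and 48.5 CPM against 9.61, 12.9 and 12.6 CPM, -1.54 ± 0.34, adjusted p = 0.00811).

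The most abundant genes with at least a 2-fold change included Timp3, an inhibitor of matrix metalloproteases bound to the matrix. It fell from 5983, 4638 and 7907 CPM to 2765, 2327 and 1719 CPM (-1.44 ± 0.23). Hp, the haemoglobin scavenger haptoglobin, rose from 621, 635 and 530 CPM to 1658, 1421 and 1899 CPM (1.48 ± 0.15), and Tmsb4x, the actin-binding thymosin β4, from 554, 582 and 492 CPM to 1484, 1514 and 1619 CPM (1.5 ± 0.16). No library of one genotype reached the range of the other in these genes. Gpx3 (1.20), Ogn (1.22), Nid2 (1.3) and the taurine transporter Slc6a6 (1.10) also rose, and the matrix glycoprotein Tnc fell (-1.03), although its groups overlapped and the call was lost without any of 4 single libraries (wt/wt replicates 2 and 3, Δ/Δ replicates 1 and 3), with an adjusted p of up to 0.151.

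Most of the differences in the leading genes were seen at week 4 and not at week 1. For 27 of the 28 leading genes the genotype effect differed between the weeks, Pam being the exception (-2.12 at week 1, -2.32 at week 4). The same was found for 7.15% of all genes and 41.7% of those called at week 4. As the 28 were picked for a large week 4 effect, their count is a description. At week 1, Nov and Pam were the only 2 of the 28 that were called. Among the abundant genes named above, Hp was also called higher at week 1 (0.77). The effects of Hp, Nid2 and Ogn did not pass the test of a difference between the weeks, whereas that of Gpx3 did. The group means of the 14 lower genes moved mainly in the wt/wt cultures: all 14 had a higher wt/wt mean at week 4 than at week 1, by 0.46 (Pam) to 3.18 (Prss35) on the log2 scale, while 2 of the 14 had a higher Δ/Δ mean at week 4. Insc, for instance, lay between 15.7 and 16.5 CPM in the week 1 wt/wt libraries, between 16.1 and 21.1 CPM in the week 1 Δ/Δ libraries, at 84.1 to 99.3 CPM in week 4 wt/wt and at 10.6 to 14.9 CPM in week 4 Δ/Δ. Of the 14 higher genes, 13 had a higher Δ/Δ mean at week 4 than at week 1 and 3 a higher wt/wt mean. Rgs4 went the other way, with 48.7 to 62.3 CPM in week 1 wt/wt and 7.18 to 10.2 CPM in week 4 wt/wt, against 33.9 to 72.0 and 44.5 to 59.3 CPM in Δ/Δ. As the genes were picked for their week 4 difference, these shifts between weeks are a description and were not tested.

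**Figure D2:**
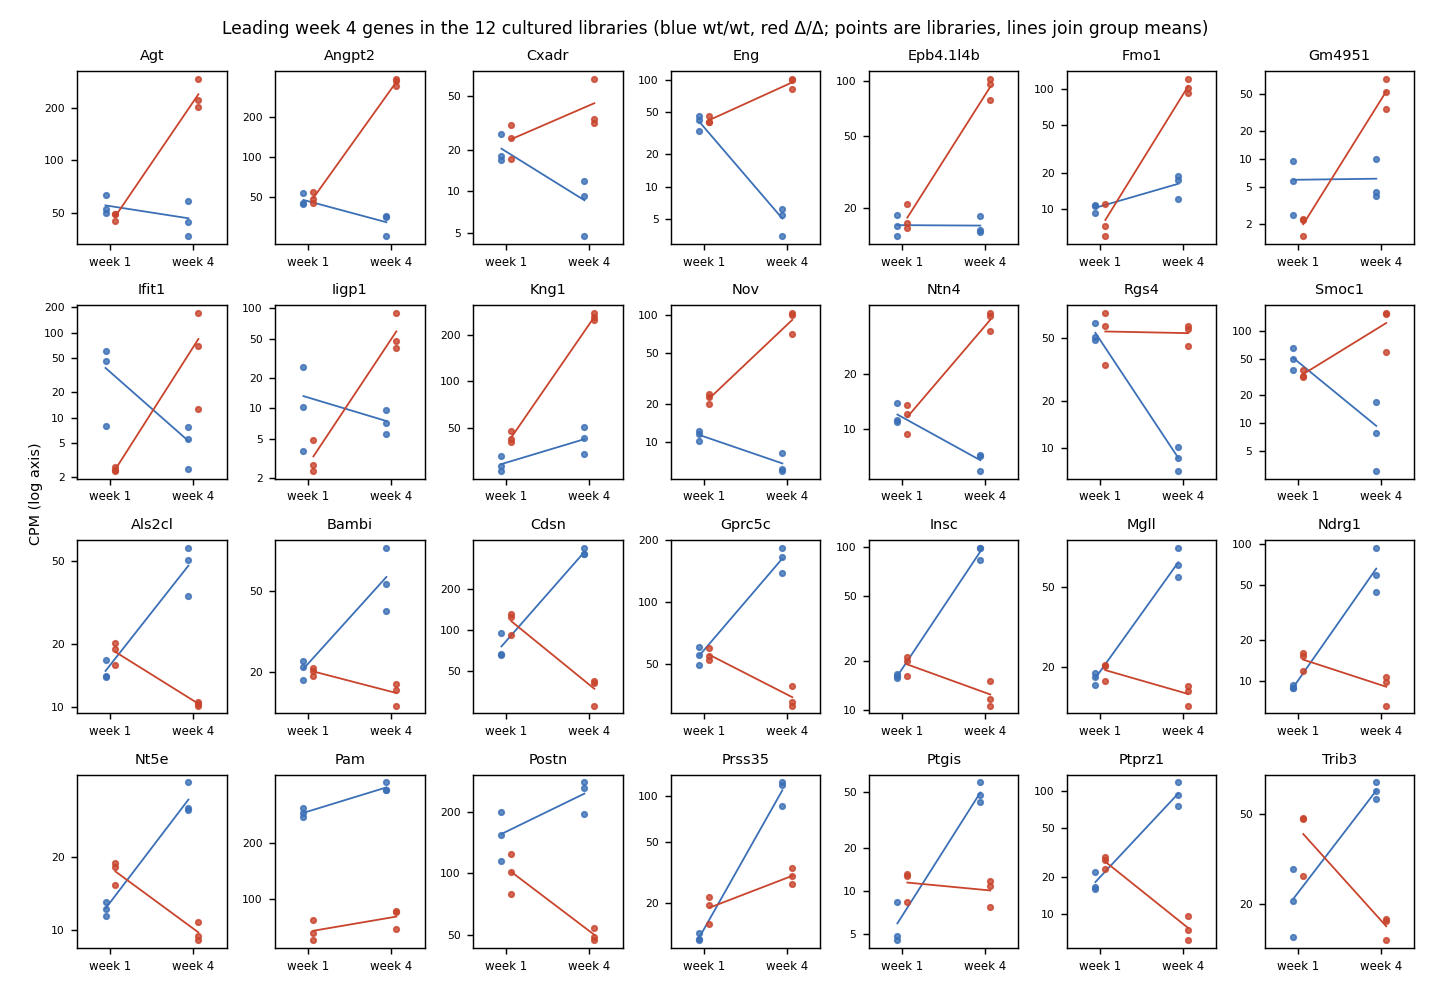
CPM (log axis) of the 28 leading genes at week 1 and week 4, the upper 2 rows being the 14 higher and the lower 2 rows the 14 lower genes. Points are single libraries (blue wt/wt, red Δ/Δ) and lines join the means of 3 libraries; the blue lines rise from week 1 to week 4 in all 14 lower genes.

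Some genes were at 0 counts in all 3 libraries of one genotype. Ifi202b, an interferon-inducible DNA sensor, had 1153 counts over the 3 wt/wt libraries (15.2, 13 and 23.4 CPM) and none in Δ/Δ, which puts it at least 848-fold lower against a floor of 3 counts over the group. It was likewise at 0 in the 3 Δ/Δ libraries of week 1, against 20.5 to 46.7 CPM in week 1 wt/wt. Col13a1, a transmembrane collagen, had 301 counts in wt/wt (4.18, 4.67 and 5.0 CPM) and none in Δ/Δ, at least 221-fold lower, but was at 0 in all 6 week 1 libraries. Thbs4, a thrombospondin of tendon and muscle matrix, followed the same course, with 15.1, 30.4 and 28.2 CPM in week 4 wt/wt and 3 counts over the 3 Δ/Δ libraries. In the other direction, and chosen after their values were seen, Eomes (159 counts, at least 24.0-fold), Ifi27l2a (139 counts, at least 21.0-fold) and Hoxb7 (47 counts, at least 7.10-fold) had counts in Δ/Δ and none in week 4 wt/wt. Hoxb7 and the imprinted RNA Meg3 (100 counts in week 4 Δ/Δ, none in week 4 wt/wt, at least 15.1-fold) did have counts in the week 1 wt/wt libraries.

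For 38 themed lists the members called in each direction were counted beside the share over all genes. Since the lists were chosen with earlier results known, the counts describe these libraries and carry no test. Shares called higher were largest among interferon-stimulated genes, small leucine-rich proteoglycans, factors that support blood stem cells and B cells, and complement. Many other lists also lay above the 9.2% of all genes, among them mesenchymal stromal markers (37%) and angiogenic factors (31.8%). Shares called lower above that of all genes were found among cholesterol synthesis, the unfolded protein and amino acid stress response, and collagen-modifying enzymes, among other lists. Where leaving out 1 library moved a list's count by over 1.5 times, the library and the count without it are given beside the list. Mitosis, DNA repair and ribosomal protein genes had fewer calls than the background.

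**Figure D3:**
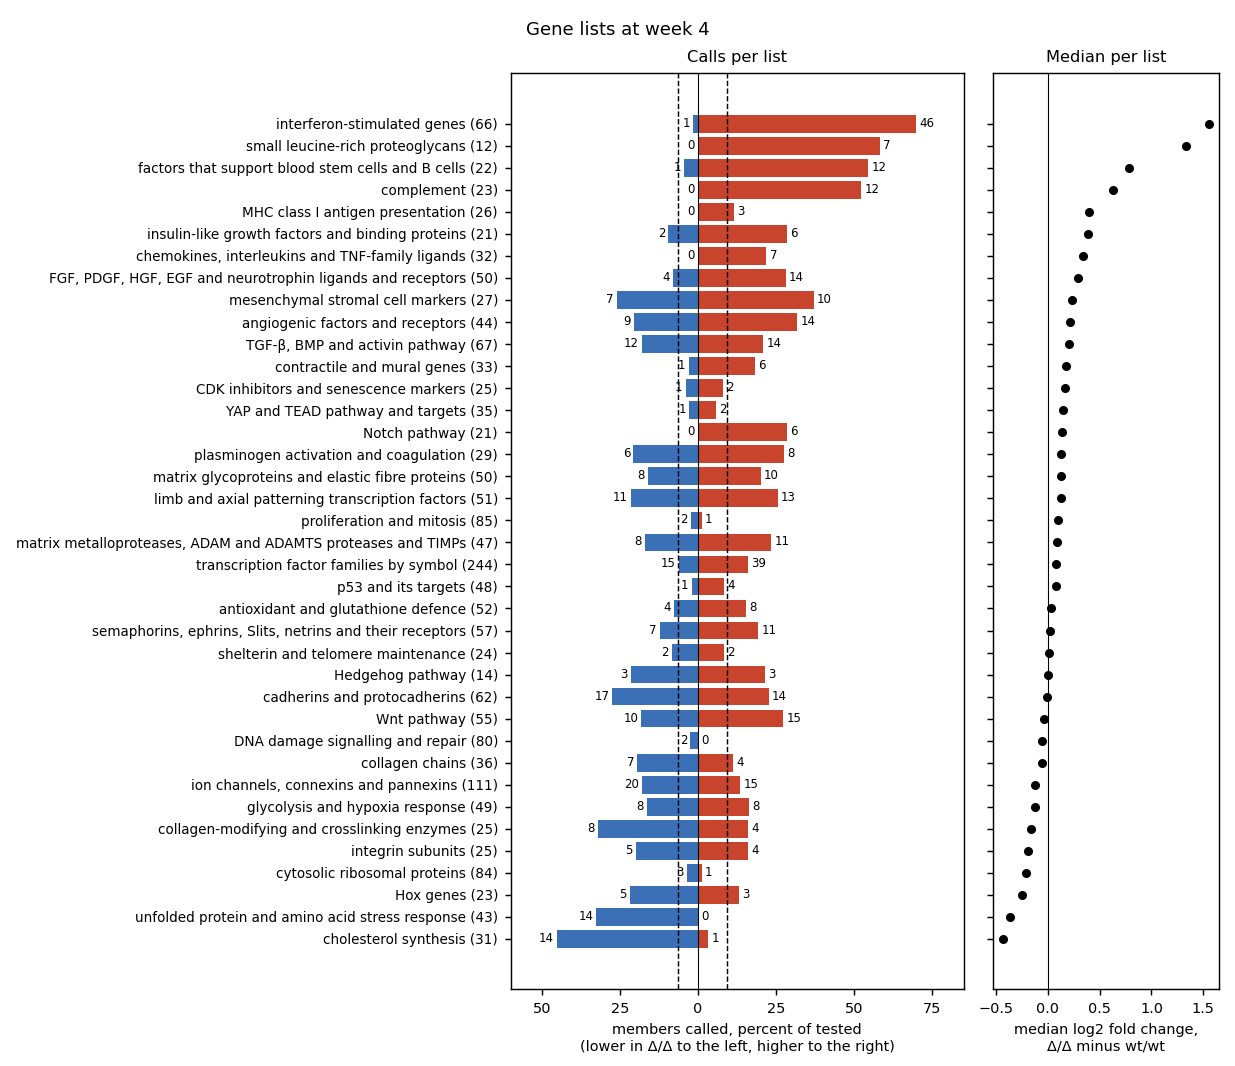
Left, percent of tested members called lower (blue) or higher (red) in week 4 Δ/Δ for 38 lists, with the number called beside each bar and the number tested in brackets; dashed lines mark the shares over all genes, 6.46% lower and 9.2% higher. Right, the median log2 fold change of each list, from 1.56 for interferon-stimulated genes to -0.43 for cholesterol synthesis.

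Interferon-stimulated genes are turned on through interferon receptors and by IRF factors, and encode inhibitors of viral replication and sensors of foreign nucleic acid. Of 66 tested, 46 were higher and 1 (Ifi202b) lower, with a median difference of 1.56. Usp18, the protease that removes ISG15 and dampens the receptor, was at 2.32, 0.628 and 1.28 CPM in wt/wt and at 103, 4.54 and 34.9 CPM in Δ/Δ (5.17 ± 1.10, adjusted p = 0.0062). Rtp4, a chaperone of cell surface receptors, was at 2.84, 1.35 and 1.56 CPM in wt/wt and at 93.6, 6.91 and 41.4 CPM in Δ/Δ (4.69 ± 0.95). Oasl2, of the oligoadenylate synthetase family, was at 5.75, 3.19 and 4.75 CPM in wt/wt and at 141, 13.6 and 75.2 CPM in Δ/Δ (4.09 ± 0.85). In each of these genes Δ/Δ replicate 1 was highest and Δ/Δ replicate 2 the lowest of the 3, yet above every wt/wt library. The list's median level showed the same order, at 48.9, 14.5 and 30.5 CPM in Δ/Δ replicates 1 to 3, against 8.79 to 9.75 CPM in wt/wt. Irf7, the master factor of the interferon loop, was at 95.4, 11.4 and 51.2 CPM in Δ/Δ against 11.7, 8.97 and 11.52 CPM in wt/wt. Its groups overlapped and its call (2.30 ± 0.70, adjusted p = 0.044) was lost without any single library other than Δ/Δ replicate 2.

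At week 1 the list stood the other way: its median level was 16, 8.91 and 29.3 CPM in wt/wt and 4.53 to 5.25 CPM in Δ/Δ, none of its genes was called higher, 4 were called lower, and the median difference was -1.41. The genotype effect differed between the weeks, towards a rise, in 51 of the 66 genes, against a background of 7.15% for a difference in either direction. The number called higher at week 4 was between 26 and 56 without a single library. It was 38, 26 and 27 without wt/wt replicates 1, 2 and 3, and 26, 56 and 31 without Δ/Δ replicates 1, 2 and 3. It was 22 without replicate 1 of both groups. The interferon genes themselves were at or near 0: Ifnz had 7 counts in wt/wt and 48 in Δ/Δ, Ifnb1 had 0 and 1, the others had at most 1, no type I or II interferon gene passed the count filter, and of the receptor chains Ifngr1 was higher (0.82, adjusted p = 0.00159) whereas Ifnar1 (-0.04), Ifnar2 (0.29) and Ifngr2 (0.09) did not pass the test. Macrophage marker genes summed to 19.9 to 27.1 CPM in wt/wt and 26.1 to 29.4 CPM in Δ/Δ, with 5 of the 20 markers, C1qa among them, at 0 counts in all 6 libraries and Adgre1 and Ptprc below the count filter, and their part in the interferon counts was not tested.

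**Figure D4:**
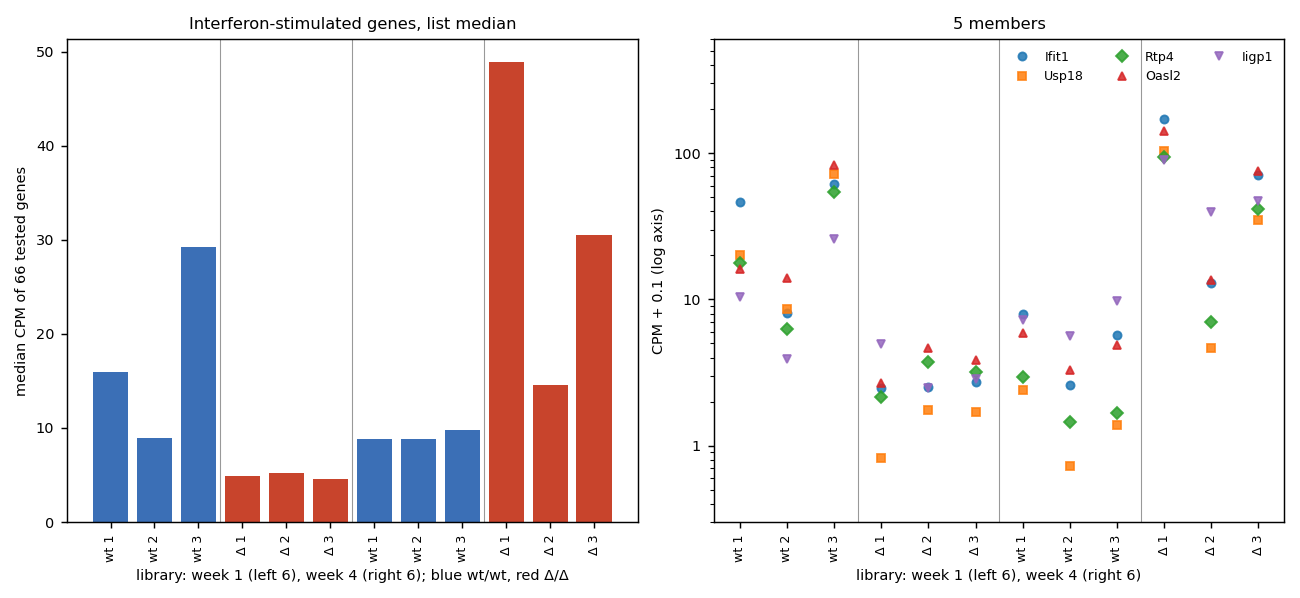
Left, median CPM of 66 interferon-stimulated genes in each of the 12 cultured libraries (blue wt/wt, red Δ/Δ). Right, CPM + 0.1 on a log axis for Ifit1, Usp18, Rtp4, Oasl2 and Iigp1; week 4 Δ/Δ replicate 1 is highest and all 3 week 1 Δ/Δ libraries are low.

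The promoters of these genes are known for the interferon-stimulated response element, and its letters were looked for in the 250 bases before each RefSeq start (build GRCm38.p6, both strands). The motif GAAANNGAA lay in 26 of the 51 tested members that had a promoter in the table (51%), and in 19 of the 34 called higher, against 7.48% of the 9980 tested genes with a promoter and 7.13% of all 32851 promoter rows. Those of Ifit1, Isg15 and Ifit3, with the largest fitted rises among the called members with the motif, 1 listed start and a mean log2 CPM of at least 2, are shown from the gene's own strand with the matching bases in capitals, in either orientation and run together where matches overlap. Isg15 (3.46, adjusted p = 0.0205) and Ifit3 (2.87, adjusted p = 0.0209) were chosen after their values were seen, and reads of Ifit3 may be shared with its near copy Ifit3b. The stretches are chr19:34640735-34640858 (+) for Ifit1, chr4:156200831-156200941 (-) for Isg15 and chr19:34583329-34583480 (+) for Ifit3, all upstream of the start.
Ifit1: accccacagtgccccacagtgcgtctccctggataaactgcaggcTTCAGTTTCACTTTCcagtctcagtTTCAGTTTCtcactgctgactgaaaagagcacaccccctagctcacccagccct
Isg15: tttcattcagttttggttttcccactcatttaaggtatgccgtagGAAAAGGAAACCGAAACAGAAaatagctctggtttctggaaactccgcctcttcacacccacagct
Ifit3: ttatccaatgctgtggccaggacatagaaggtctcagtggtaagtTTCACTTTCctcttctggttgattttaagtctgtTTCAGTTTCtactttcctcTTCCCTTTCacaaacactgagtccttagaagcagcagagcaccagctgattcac

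The small leucine-rich proteoglycans coat collagen fibrils and bind growth factors, and 7 of 12 were higher and 0 lower (median 1.33). Lum, which encodes lumican, was at 0.523, 1.75 and 0.603 CPM in wt/wt and at 26.3, 30.6 and 16.8 CPM in Δ/Δ (4.63 ± 0.45, adjusted p = 1.65e-05). Dcn, which encodes decorin, was at 33.1, 16.6 and 17.7 CPM in wt/wt and at 95.8, 117 and 99.0 CPM in Δ/Δ (2.22 ± 0.25). Prelp was at 188, 215 and 188 CPM in wt/wt and at 609, 544 and 633 CPM in Δ/Δ (1.6 ± 0.14). It was already called higher at week 1 (1.23), and its effect did not pass the test of a difference between the weeks. The week 4 groups did not overlap in Lum, Dcn and Prelp, and Aspn (4.84), Ecm2 (1.59), Podn (1.45) and Ogn (1.22) rose as well. Bgn (0.38, adjusted p = 0.0899), Omd (0.65, adjusted p = 0.106), Podnl1 (0.40, adjusted p = 0.0516), Fmod (-0.17) and Tsku (-0.58) did not pass the test. Of 36 collagen chains 4 were higher and 7 lower. Col10a1, the collagen of hypertrophic cartilage, was higher (14.1, 20.1 and 21.4 CPM against 40.1, 49.6 and 47.1 CPM, 1.29 ± 0.16), while the fibrillar Col11a1 (-1.44) and Col11a2 (-5.21 ± 0.77) were lower. Col11a2 was uneven in wt/wt (1.72, 31.9 and 17.7 CPM) and near the floor in Δ/Δ (0.352, 0.346 and 0.575 CPM), so the size of its fall is uncertain. Without wt/wt replicate 1, in which most fibrillar collagens were lowest among the wt/wt libraries, 12 collagen chains were called lower, and without Δ/Δ replicate 3 only 2 were called higher.

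Among 50 matrix glycoproteins 10 were higher and 8 lower. Fbln7 (2.30) and Tgfbi (1.67) rose beside Nov, whereas Wisp1, another CCN protein, fell from 186, 218 and 182 CPM to 76.5, 68.8 and 74.6 CPM (-1.42 ± 0.14). Of 25 collagen-modifying and crosslinking enzymes 4 were higher and 8 lower, among the latter the lysyl oxidase Loxl4 (-1.13). The 4 higher enzymes became 2 without wt/wt replicate 3 or Δ/Δ replicate 2 and 1 without Δ/Δ replicate 3, and the 8 lower became 5 without Δ/Δ replicate 2 or 3. In the protease list (47 tested) 11 were higher, with Mmp11 first among the better-measured (113, 105 and 88.5 CPM against 312, 264 and 333 CPM, 1.57 ± 0.13), and 8 lower, among them Mmp16 (-1.25) and Timp1 (-1.01). Of 29 genes of plasminogen activation and coagulation 8 were higher and 6 lower, with a rise of Serpina3g (1.94) and a fall of the plasminogen activator Plat (-1.19). The 8 became 5 without wt/wt replicate 2, Δ/Δ replicate 1 or Δ/Δ replicate 2.

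Complement proteins mark surfaces for clearance, and 12 of 23 tested members were higher with none lower (median 0.63), or 1 lower without wt/wt replicate 1. Cd59a, an anchored inhibitor of the membrane attack complex, was at 3.29, 2.69 and 2.80 CPM in wt/wt and at 28.1, 27.0 and 24.4 CPM in Δ/Δ (3.19 ± 0.17, adjusted p = 2.7e-07). C4b rose from 13, 27.2 and 21.0 CPM to 60.9, 51.1 and 51.2 CPM (1.41 ± 0.23), and the chaperone clusterin (Clu) from 15.7, 13.7 and 10.3 CPM to 49.0, 51.5 and 52.7 CPM (1.96 ± 0.18). Every Δ/Δ library lay above every wt/wt library in these 3 genes, with little spread among the Δ/Δ libraries. The rise of the list was not particular to week 4. At week 1 its median difference was 0.67, with 3 members called higher, Clu among them (1.04), and 0 lower. The genotype effect differed between the weeks towards a rise in 5 members, Cd59a among them, and towards a fall in 1. Of 32 chemokine, interleukin and TNF family ligands 7 were higher and 0 lower, with Tnfsf11, the osteoclast factor RANKL, at 1.20, 2.06 and 2.94 CPM in wt/wt and 8.13, 10.9 and 8.2 CPM in Δ/Δ (2.07 ± 0.29), and Cxcl16 at 0.89. Il6 had too few counts to be tested. Of 26 genes of MHC class I presentation 3 were higher (11.5%, near the 9.2% of all genes) and 0 lower. The 3 became 13 without Δ/Δ replicate 2 and 5 without wt/wt replicate 1, and 1 was lower without wt/wt replicate 1. Cd1d1, which presents lipids to NKT cells, was 1 of the 3 in the main fit (0.79 ± 0.14, adjusted p = 0.00175).

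**Figure D5:**
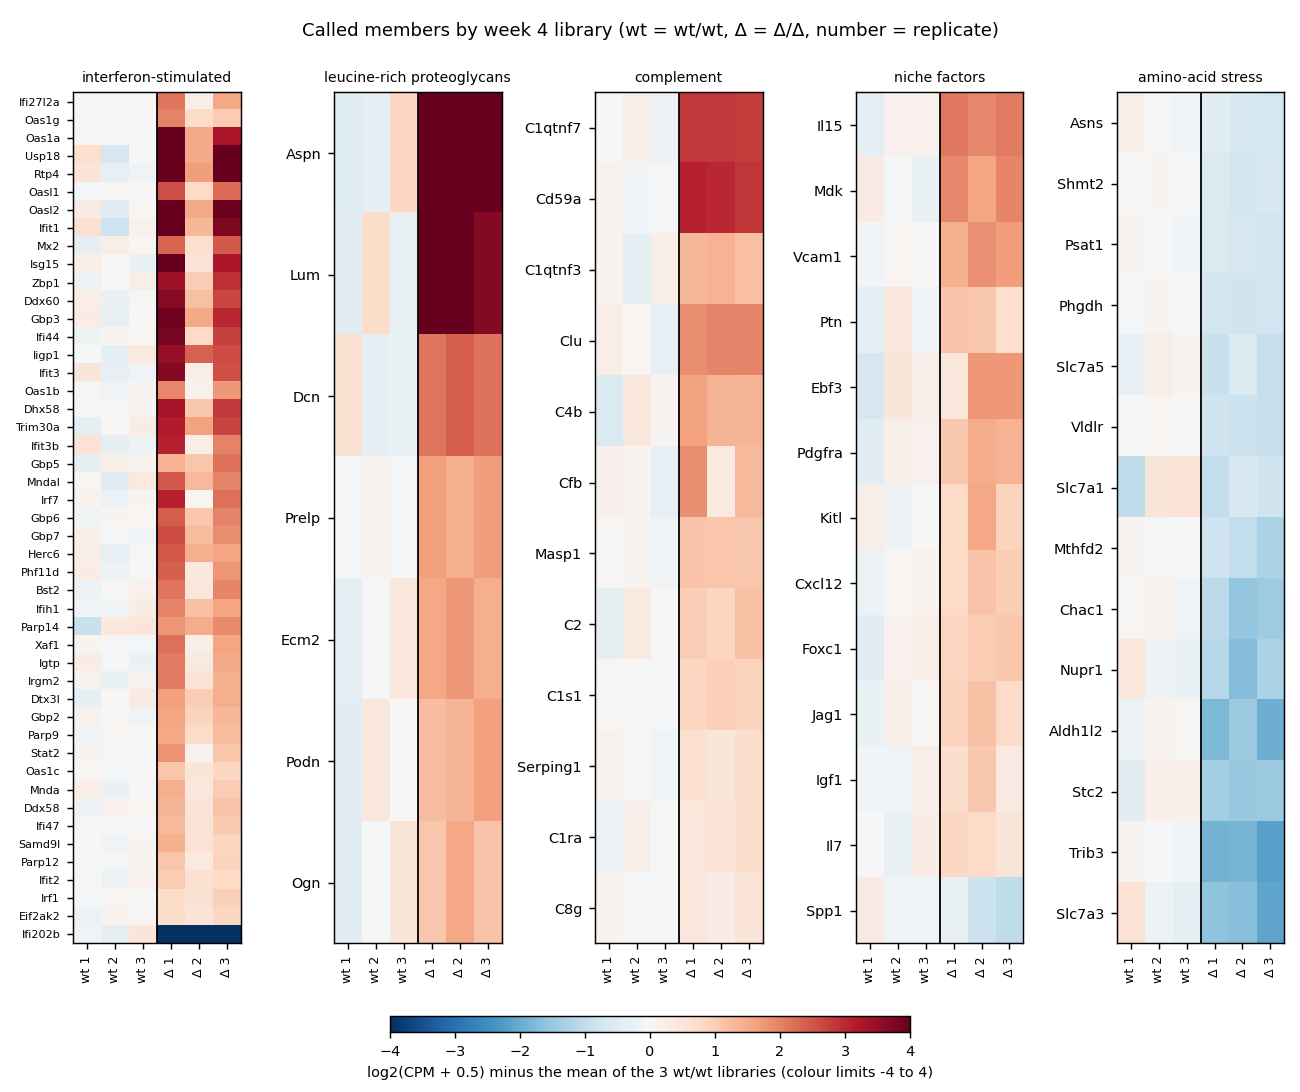
Called members of 5 lists (interferon-stimulated, proteoglycan, complement, niche and amino acid stress genes) in each of the 6 week 4 libraries, coloured by log2(CPM + 0.5) minus the mean of the 3 wt/wt libraries, from -4 (blue) to 4 (red). In most of the interferon-stimulated genes Δ/Δ replicate 1 is the most and replicate 2 the least raised.

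Of 22 tested factors that support blood stem cells and B cells, 12 were higher and 1 lower (median 0.79). Cxcl12, the chemokine that retains stem cells in the marrow, was at 6339, 7868 and 8055 CPM in wt/wt and at 12740, 16210 and 14510 CPM in Δ/Δ (0.96 ± 0.15, adjusted p = 0.000859). Vcam1, the adhesion molecule that binds VLA-4, was at 149, 168 and 163 CPM in wt/wt and at 429, 572 and 516 CPM in Δ/Δ (1.66 ± 0.16). Kitl, which encodes stem cell factor, was at 164, 121 and 138 CPM in wt/wt and at 237, 413 and 260 CPM in Δ/Δ (1.10 ± 0.20). The groups were apart for all 3. Mdk (1.85) and Jag1 (0.95) were also higher. Il7, the B cell growth factor, was at 15.2, 12.1 and 18.4 CPM in wt/wt and at 26.9, 25.6 and 21.7 CPM in Δ/Δ. Its call (0.70 ± 0.19, adjusted p = 0.0237) was lost without wt/wt replicate 2, Δ/Δ replicate 1 or Δ/Δ replicate 2, with an adjusted p of up to 0.101. Spp1, which encodes osteopontin, was the member that fell (-0.72, adjusted p = 0.0347), a call lost without wt/wt replicate 1 or Δ/Δ replicate 2 or 3 (adjusted p up to 0.127).

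Of 27 mesenchymal stromal markers 10 were higher and 7 lower, so the libraries differed in which markers they carried. Lepr, the marker of perivascular stroma, rose from 42.7, 46.0 and 52.9 CPM to 74.3, 110.3 and 88.2 CPM (0.94 ± 0.16), and Pdgfra, used in the first sort and named here after its values were seen, from 69.1, 109 and 103 CPM to 193, 259 and 241 CPM (1.3 ± 0.18). Grem1, a BMP antagonist, rose from 1.79, 1.79 and 1.67 CPM to 12.0, 15.2 and 20 CPM (3.17 ± 0.24). Ly6c1 (-1.65) and Nt5e (-1.81) fell. Acta2, smooth muscle actin, was nearly level (0.07, adjusted p = 0.835), and 6 of 33 contractile and mural genes were higher and 1 lower, with Des, which encodes desmin, at 3.89, 6.10 and 4.22 CPM against 17.0, 14.2 and 16.9 CPM (1.75 ± 0.23). Without wt/wt replicate 1, 3 mural genes were lower.

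The sterol pathway makes cholesterol from acetyl-CoA and is switched on by SREBP2 when sterols are low. Of 31 tested genes 14 were lower and 1 higher (median -0.43). Mvd, an enzyme of the mevalonate route, was at 17.1, 19.3 and 17.1 CPM in wt/wt and at 11.4, 10.0 and 11 CPM in Δ/Δ (-0.72 ± 0.12). The groups did not overlap, although the fall was small. Members called lower lay between -0.72 and -0.38 and included Tm7sf2, Sqle, Fdft1, Fdps, Cyp51, Lss, Hsd17b7, Ebp, Dhcr7, Nsdhl and Hmgcs1. The 1 higher member was Npc2 (0.39), which carries cholesterol out of the lysosome and does not make it. The call of Npc2 was lost without any of 4 single libraries, wt/wt replicates 2 and 3 and Δ/Δ replicates 1 and 3, with an adjusted p of up to 0.136. The number called lower was 8 without Δ/Δ replicate 3, 9 without Δ/Δ replicate 1 and 6 when only the week 4 libraries were fitted. Letters of the sterol regulatory element, TCACNCCAC, were found in 1 of 21 members with a promoter, Hmgcs1, against 1.18% of tested genes.

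In the list of the unfolded protein and amino acid stress response 14 of 43 were lower and 0 higher (median -0.36), and the genotype effect differed between the weeks, towards a fall, in 13. Those that fell do not include the chaperones: they take in the transporters Slc7a3 (-2.05), Slc7a1 (-0.99) and Slc7a5 (-0.81), enzymes of serine, one-carbon and asparagine synthesis (Aldh1l2, Mthfd2, Phgdh, Psat1, Shmt2, Asns), and the ATF4 targets Trib3, Nupr1, Chac1 and Stc2, beside Vldlr. Trib3 was at 69.1, 63.4 and 58.4 CPM in wt/wt and at 16.8, 17.2 and 13.8 CPM in Δ/Δ (-2.0 ± 0.26). Aldh1l2, a mitochondrial folate enzyme, was at 90.9, 113 and 108 CPM in wt/wt and at 29.6, 36.8 and 26.2 CPM in Δ/Δ (-1.76 ± 0.18, adjusted p = 2.33e-05). Hspa5 (-0.36, adjusted p = 0.251), Xbp1 (-0.18, adjusted p = 0.505), Atf4 (-0.29, adjusted p = 0.588) and Ddit3 (-0.41, adjusted p = 0.227), looked up after the counts were seen, did not pass the test.

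The letters of the C/EBP-ATF response element, TGATGNAA, were in 7 of 38 list members with a promoter (18.4%) and in 4 of the 11 called lower (Nupr1, Chac1, Vldlr and Asns), against 2.43% of the 9980 tested genes and 3.45% of all promoter rows. The stretches around it in Nupr1, Chac1 and Asns, picked by the rule given above for the interferon genes, lie at chr7:126625528-126625625 (-), chr2:119351004-119351101 (+) and chr6:7693210-7693277 (-) of GRCm38.p6, with the motif in capitals in either orientation. The log2 differences were -1.4 for Nupr1, -1.37 for Chac1 and -0.59 for Asns.
Nupr1: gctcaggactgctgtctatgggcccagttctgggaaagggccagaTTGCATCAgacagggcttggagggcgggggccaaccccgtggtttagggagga
Chac1: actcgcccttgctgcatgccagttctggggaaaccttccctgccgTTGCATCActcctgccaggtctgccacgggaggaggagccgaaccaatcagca
Asns: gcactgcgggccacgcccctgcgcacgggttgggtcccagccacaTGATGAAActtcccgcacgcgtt

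Of 49 glycolysis and hypoxia genes 8 were higher and 8 lower. The hypoxia-inducible factor Epas1 rose from 16.1, 33.2 and 33.0 CPM to 67.2, 118 and 102 CPM (1.79 ± 0.28), whereas Ndrg1 and Aldoc (-1.14) fell and Vegfa was level (0.05, adjusted p = 0.903). Of 52 antioxidant genes 8 were higher and 4 lower, with the plasma glutathione peroxidase Gpx3 at 887, 795 and 716 CPM in wt/wt and 1841, 1691 and 1962 CPM in Δ/Δ (1.20 ± 0.13), and Mgst1 at 1.38. The 4 lower antioxidant genes became 2 without wt/wt replicate 3 and 1 without Δ/Δ replicate 2 or 3.

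Of 67 TGF-β, BMP and activin genes 14 were higher and 12 lower. The 14 became 9 without wt/wt replicate 2 or Δ/Δ replicate 3, and the 12 became 7 without Δ/Δ replicate 3. Ligands went both ways, with Bmp6 higher (2.38) and Bmp8a (-1.62) and the activin subunit Inhbb (-1.32) lower. In the Wnt list 15 of 55 were higher and 10 lower. The ligand Wnt11, known for non-canonical signalling, rose from 47.5, 33.2 and 30.4 CPM to 143, 106 and 144 CPM (1.83 ± 0.17) and the receptor Ror1 from 6.28, 7.09 and 5.42 CPM to 36.1, 24.9 and 29.8 CPM (2.28 ± 0.19). The R-spondin receptor Lgr5 rose too (2.06). The transcription factor Tcf7, an effector and target of canonical Wnt, fell from 10.7, 14 and 13.2 CPM to 1.27, 1.78 and 1.70 CPM (-2.99 ± 0.26), as did the secreted inhibitors Wif1 (-1.37) and Notum (-1.34). Hedgehog genes were split, 3 higher and 3 lower of 14, with the ligand Ihh at 1.57, 1.97 and 2.06 CPM in wt/wt and 0.0704, 0.148 and 0.141 CPM in Δ/Δ (-3.87 ± 0.33), and 1 was higher without Δ/Δ replicate 2 or 3. Of 21 Notch genes 6 were higher and 0 lower, among them the ligand Jag1, the target Hey1 (1.09) and Dtx4 (1.54), and 1 was lower without Δ/Δ replicate 2.

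Growth factors and their receptors were higher in 14 and lower in 4 of 50. Fgf10 was at 4.78, 3.99 and 6.63 CPM in wt/wt and at 25.8, 32.2 and 20.6 CPM in Δ/Δ (2.34 ± 0.27), and Kit, the receptor of stem cell factor, at 33.5, 39.7 and 33.3 CPM and 79.0, 102 and 96.2 CPM (1.38 ± 0.13). Kit was already called higher at week 1 (1.07), without a called difference between the weeks. The PDGF ligands Pdgfc (-1.5) and Pdgfa (-0.98) and the EGF family ligand Hbegf (-1.39) fell, while Pdgfra, which encodes a PDGF receptor, rose. Among 21 insulin-like growth factor genes 6 were higher and 2 lower, with Igf2 at 19.1, 27.6 and 24.4 CPM against 50.3, 77.8 and 90.2 CPM (1.61 ± 0.29) and Stc1, which encodes stanniocalcin-1, an inhibitor of the protease that frees IGF, at 2.03. The 2 lower genes became 1 without wt/wt replicate 2 or 3 or Δ/Δ replicate 1 or 3. The angiogenic list had 14 higher and 9 lower of 44. Vegfc, the lymphatic growth factor, rose from 20.5, 28.4 and 25.8 CPM to 84.5, 105 and 109.6 CPM (2.0 ± 0.17), and Ackr3, the scavenging receptor of CXCL12, fell from 36.4, 26.3 and 26.3 CPM to 4.75, 5.53 and 5.96 CPM (-2.44 ± 0.19). In the YAP and TEAD list 2 of 35 were higher and 1 lower, a share below the background. The 2 became 1 without wt/wt replicate 2 or Δ/Δ replicate 1, and the 1 lower gene was called in neither fit, nor without wt/wt replicate 3 or Δ/Δ replicate 3, with 2 lower without wt/wt replicate 1.

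Of 25 integrin subunits 4 were higher and 5 lower, the latter being 3 without wt/wt replicate 2 or Δ/Δ replicate 1 and 2 without Δ/Δ replicate 3. Itga8, a mural and fibroblast subunit, rose from 2.39, 2.56 and 3.79 CPM to 21.4, 26.7 and 17.4 CPM (2.87 ± 0.27), and Itga10, a collagen receptor of cartilage, fell from 14.2, 22.7 and 16.8 CPM to 2.82, 3.65 and 3.07 CPM (-2.50 ± 0.20). Itga1, also a collagen receptor, rose (1.23). Of 62 cadherins and protocadherins 14 were higher and 17 lower. Clustered γ-protocadherins moved in both directions, with Pcdhga10 at 25.2, 44.1 and 42.5 CPM in wt/wt and 6.30, 6.87 and 6.28 CPM in Δ/Δ (-2.53 ± 0.22), and Pcdhga11 at 2.54, 2.83 and 2.69 CPM and 7.46, 9.93 and 8.24 CPM (1.66 ± 0.18). These genes share their last exons, so that counts of single members are uncertain. Of 57 semaphorins, ephrins, Slits, netrins and receptors 11 were higher, with the ephrin receptors Epha4 (1.71) and Epha7 (1.72), and 7 lower, with Epha2 (-1.72). Without wt/wt replicate 1, 13 of the 57 were called lower. Of 111 ion channel and gap junction genes 15 were higher and 20 lower. The potassium channel Kcnma1 fell from 23.8, 30.7 and 29.3 CPM to 2.11, 3.75 and 1.77 CPM (-3.52 ± 0.31), and the channel subunit Kcnab1 rose from 2.99, 2.20 and 3.44 CPM to 17.4, 18.7 and 18.1 CPM (2.64 ± 0.21).

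Of 244 transcription factors in families by symbol 39 were higher and 15 lower (16% and 6.15%). Without Δ/Δ replicate 3 the 39 became 25. Mef2c, a factor of muscle and of cartilage hypertrophy, fell from 124, 106 and 113 CPM to 23.5, 26.8 and 21.9 CPM (-2.25 ± 0.13, adjusted p = 5.87e-07), and Creb3l1, a secretory factor of osteoblasts, from 147, 182 and 183 CPM to 62.9, 55.2 and 64.1 CPM (-1.49 ± 0.11); both also belong to the bone list. Klf15, a factor of adipocytes and glucocorticoid response, rose from 7.77, 10.2 and 5.42 CPM to 22.8, 18.5 and 23.1 CPM (1.47 ± 0.20). Sox9, the cartilage factor, was level (-0.02, adjusted p = 0.955). Limb and axial patterning factors had 13 higher and 11 lower of 51. Tbx18 rose (1.07), and Dlx3 (-2.62), Dlx4 (-2.80) and the tendon factor Scx (-2.10) fell. At low levels, and chosen after their values were seen, Pax3 went from 0, 0 and 0.0355 CPM to 4.05, 2.57 and 3.87 CPM and Pax9 from 0.224, 0.0449 and 0.142 CPM to 2.82, 2.27 and 2.53 CPM. Hox genes were called in 8 of 23, with Hoxc13 (1.12) and Hoxc12 (1.02) higher and Hoxa11 lower (24.1, 25.8 and 22.8 CPM against 12.5, 11 and 13.2 CPM, -0.98 ± 0.15). The 5 lower Hox genes became 3 without Δ/Δ replicate 2 and 1 without Δ/Δ replicate 3.

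Of 24 shelterin and telomere maintenance genes 2 were higher, Pot1a and Atrx (0.35, adjusted p = 0.0293), and 2 lower. The share called was 16.7%, near the 15.7% of all genes. Atrx lost its call without any of 5 single libraries, all but wt/wt replicate 1 (adjusted p up to 0.174). Dkc1, which encodes the telomerase and snoRNA component dyskerin, fell from 60.8, 45 and 42.8 CPM to 30.5, 25.7 and 26.2 CPM (-0.85 ± 0.14), and its partner Nhp2 fell by 0.82 on the log2 scale. Tert was at 5.38, 6.77 and 5.21 CPM in wt/wt and 3.59, 4.15 and 6.25 CPM in Δ/Δ (-0.29, adjusted p = 0.413). In the list of DNA damage signalling and repair 0 of 80 were higher and 2 lower, Lig3 (-0.45) and Xrcc2 (-0.47), well under the 15.7% of all genes. Without Δ/Δ replicate 3 neither was called, and without wt/wt replicate 3 or Δ/Δ replicate 1 only 1 was. Of 48 p53 targets 4 were higher, with Gadd45a (6.5, 7.22 and 7.66 CPM against 14.5, 17.7 and 15.8 CPM, 1.16 ± 0.14) and Polk (0.82) among them, and Ccnd1, which encodes cyclin D1, was lower (-0.95). Without wt/wt replicate 2, 2 of the p53 targets were called higher. In the main fit 8.33% of the p53 targets were higher and 2.08% lower, against 9.2% and 6.46% of all genes.

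Cdkn1a, the p53 target and cell cycle inhibitor p21, was at 532, 376 and 415 CPM in wt/wt and at 485, 362 and 459.6 CPM in Δ/Δ (-0.02, adjusted p = 0.966). Of 25 CDK inhibitors and senescence markers 2 were higher and 1 lower (12% called, against 15.7% of all genes). The number lower was 2 without wt/wt replicate 1 or Δ/Δ replicate 2 and 0 without Δ/Δ replicate 3. Cdkn2a was low in all libraries, at 0.971, 1.57 and 1.31 CPM and 0.493, 1.48 and 1.34 CPM (-0.23 ± 0.45, adjusted p = 0.814). Of 85 genes of proliferation and mitosis 1 was higher and 2 lower, and Mki67 was at 12.6, 21.7 and 13.6 CPM in wt/wt and at 11.2, 24.6 and 15.2 CPM in Δ/Δ (0.08 ± 0.26). Without wt/wt replicate 1, 11 of the 85 were called higher, and 5 without Δ/Δ replicate 3, but 0 without any other single library. The 2 lower became 5 without wt/wt replicate 3 and 1 without Δ/Δ replicate 2 or 3. Of 84 ribosomal protein genes 1 was higher and 3 lower, with Rpl5 at -0.57, and 1 lower without wt/wt replicate 1 or Δ/Δ replicate 2.

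Lists of 13 other cell types were checked as a measure of what else the cultures held. Neutrophil, T cell and megakaryocyte lists summed to at most 7.72 CPM in any wt/wt and 9.24 CPM in any Δ/Δ library, with 0 of their tested members called. The B cell list summed to 238 to 336 CPM in wt/wt and 304 to 419.9 CPM in Δ/Δ, nearly all of it Ebf1, which stromal cells also express. Of 7 macrophage genes tested, Fcer1g was higher (0.523, 0.269 and 0.177 CPM against 3.03, 1.88 and 2.81 CPM, 3.15 ± 0.38) and Mrc1 lower (-1.5). Fcer1g was already called higher at week 1 (2.03), without a called difference between the weeks. Of 5 osteoclast genes 3 were higher, Acp5 (1.15), Atp6v0d2 (1.18) and Ctsk (0.64), and Nfatc1 lower (-0.63). Of 3 erythroid genes Epor was higher (0.81), of 3 endothelial genes Flt4 lower (-2.11) and of 3 epithelial genes Cdh1 (-2.63) and Krt19 (-0.68) lower. The call of Epor was lost without wt/wt replicate 2 or 3 or Δ/Δ replicate 1 or 3 (adjusted p up to 0.0971), and that of Cdh1 without wt/wt replicate 2 or Δ/Δ replicate 3 (adjusted p up to 0.101). The epithelial list summed to 14.4 to 15.3 CPM in wt/wt and 7.81 to 9.63 CPM in Δ/Δ. Skeletal muscle Acta1 and Des were higher (2.21 and 1.75), and the muscle list summed to 7.32 to 9.40 CPM in wt/wt and 31.4 to 32.4 CPM in Δ/Δ. At week 1 its 3 tested members summed to 63.4 to 93.4 CPM in wt/wt and 74.5 to 120.5 CPM in Δ/Δ, so both groups stood lower at week 4. Of 6 Schwann cell and neuron genes Pmp22 was higher (0.95) and 3 lower, S100b (-0.91), Tubb3 (-1.17) and Map2 (-2.80). Chondrocyte genes had 3 higher and 4 lower of 10, and tendon genes 2 higher and 4 lower of 9, the lower ones including Ihh, Scx and Thbs4. The tendon counts were 1 higher without wt/wt replicate 2 or Δ/Δ replicate 3 and 2 lower without wt/wt replicate 3 or Δ/Δ replicate 3. Bulk libraries cannot tell fewer cells of a type from less RNA per cell, and the part of any minor cell type in the results above was not tested.

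Within 10 Mb of Pot1a on chromosome 6, 71 genes were tested and 8 were higher and 10 lower (25.4%, against 15.7% of all genes). Over single chromosomes the share called ran from 12.9% to 20.2%, and was 19.4% on chromosome 6.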

How the data were processed

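Polyadenylated RNA of re-sorted cultured MSPCs was made into libraries with the SMART-Seq v4 and Nextera XT kits, which do not mark strand, and sequenced on a NextSeq 500. Per the study's methods and processing notes, reads were aligned to mm10 with HISAT2 (2.0.4) and summed per gene with featureCounts (1.6.3). The authors deposited whole-number counts per gene symbol, not normalized; the annotation and strand setting used for counting are not given in the sources used here, so overlapping and antisense genes cannot be told apart.

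Counts were tested with the quasi-likelihood F-test of edgeR (4.0.16, with limma 3.58.1 in R 4.3.3) after filterByExpr (minimum count 10) and TMM scaling. The fit held all 12 cultured libraries in 4 groups, which share 1 estimate of spread, and the week 4 contrast was Δ/Δ minus wt/wt. Genes with a Benjamini-Hochberg adjusted p below 0.05 over 13169 genes were called. Each library counted as a sample, and no 2 replicates matched within sampling noise. Libraries made apart from 1 culture could also differ beyond that noise, so the check cannot show that the replicates are independent. The script was tested on simulated data. Promoters and starts are from RefSeq (GRCm38.p6).

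The gene lists, and the members named, were chosen with earlier results of these data known. Named genes are Pot1a, the 14 largest rises and falls (mean log2 CPM of at least 4, no overlap, outside the bone, PPAR and oxidation lists), the 8 most abundant genes with at least a 2-fold change, up to 3 risers and 3 fallers of each list (mean log2 CPM of at least 2), or its 2 members with the smallest p where none passed, all measured members of lists of 12 or fewer, 14 genes central to a list and 2 called genes with at most 3 counts in a group. Genes outside this rule, which include Pdgfra, Isg15, Ifit3, the interferon receptors and most named sterol and amino acid stress genes, were chosen after their values were seen.

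The alternatives were other scaling, other filters, DESeq2 (1.42.0), the 6 week 4 libraries alone, a replicate block, a threshold of 0.01 and leaving out single libraries. Leaving out replicate 1 of both groups was added after seeing the data. Some genes are not reported here.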

Additional observations from a re-analysis of the deposited data

Results flagged for a closer look

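The genotype effect differed between week 4 and week 1 for 27 of the 28 leading genes, by a test of the difference itself (edgeR quasi-likelihood test, adjusted p below 0.05 over all genes). The values below are the week 4 effect minus the week 1 effect on the log2 scale. Since the genes were picked for a large week 4 effect, the size of the values and the count of 27 are a description. Among the interferon-inducible genes the difference was 7.98 for Ifit1, 4.99 for Iigp1 and 4.80 for Gm4951. Among genes of secreted and matrix proteins it was 4.24 for Smoc1, 3.49 for Angpt2, 2.80 for Nov, 2.57 for Agt, 2.57 for Ntn4 and 2.06 for Kng1. For genes of membrane and intracellular proteins that were higher it was 4.15 for Eng, 3.06 for Fmo1, 2.61 for Rgs4, 2.39 for Epb4.1l4b and 2.10 for Cxadr.

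For the genes that were lower at week 4 the difference was -4.22 for Ptprz1, -3.93 for Cdsn, -3.52 for Ndrg1, -3.23 for Ptgis, -3.16 for Insc and -2.95 for Trib3. It was -2.51 for Als2cl, -2.48 for Prss35, -2.32 for Nt5e, -2.31 for Mgll, -2.26 for Gprc5c, -1.83 for Bambi and -1.68 for Postn.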

How the results depend on the processing

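None of the 2062 genes called at week 4 was called in the opposite direction under any alternative, and 59.6% (adjusted p below 0.01) to 98.6% (RLE scaling) were called again. Genes higher and lower numbered 727 and 501 at an adjusted p below 0.01 and 759 and 508 with only the 6 week 4 libraries, and 508 genes differed between the weeks at the stricter threshold. Leaving out single libraries gave 910 to 1319 higher, 641 to 1020 lower and 731 to 1248 differing between the weeks. The difference of Pot1a was 0.39 in the setting without a filter (adjusted p = 0.0673) and 0.37 with only the week 4 libraries (adjusted p = 0.164), missed the 0.01 threshold at 0.39, and lay between 0.34 and 0.45 without single libraries. Same-numbered week 4 libraries deviated together with r = 0.873, 0.349 and -0.148 for replicates 1, 2 and 3. Replicate 1 of both groups thus deviated alike, whereas replicate 3 did not. Values were also high between wt/wt replicate 3 and Δ/Δ replicate 2 (0.748) and between wt/wt replicate 2 and Δ/Δ replicate 3 (0.601). The main fit took no account of such shared deviations. A replicate block gave 1137 higher and 772 lower genes and 0.39 for Pot1a (adjusted p = 0.0551). Of 222 named called genes, 48 lost their call in at least 1 setting, 39 of them with only the week 4 libraries. The causes were not tested. With 12807832 counts in the shallowest library, genes of a few counts were not testable.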
